A study of Mus musculus with 7 samples.

Results

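The 8 genes Mbp, Mog, Mag, Mobp, Cnp, Mal, Cldn11 and Opalin encode proteins of central myelin, and they were followed in RNA from vascular fragments of the mouse brain. They were taken by symbol: a probe set counted for a gene if the platform annotation gave it that symbol alone, and the brightest such probe set stood for the gene. Each of the 8 had exactly 1 probe set of this kind, out of 23521 probe sets with 1 symbol and 33793 in all. The samples came from female C57BL/6N mice aged 12 weeks, killed 4 hours after an injection into the cerebral ventricles. In 4 samples the injection held PDGF-CC, a ligand of the receptor tyrosine kinase PDGFR-alpha, and in 3 it held phosphate-buffered saline (PBS), with 1 microarray per sample. Neither group carried an engineered allele according to the labels, the sample labels give the strain only as C57BL/6, and they do not say whether each sample was a separate mouse. P-values thus rest on the variation among these 7 samples, and part of it may be technical.

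Myelin is the multilayered membrane that oligodendrocytes wrap around axons in the brain. Its compact layers are held together by small basic proteins at their inner faces. Adhesion proteins and channels sit in the inner and outer loops. Fragments of vessels are commonly isolated by size and density, so membrane pieces from the surrounding tissue, myelin among them, can come along with the endothelial and mural cells. Fewer cells of a type and less RNA per cell cannot be told apart in such bulk samples.

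All 12 measured markers of brain endothelium were bright, with means over the 7 arrays from 9.09 to 12.4 on the log2 scale of the deposited values. Some markers of other cells were as bright, such as Ttr of choroid plexus at 12.7 and Cx3cr1 of microglia at 11.0, and others were dimmer. The endothelial levels thus do not measure how pure the fragments were. Among the myelin genes Mal was bright, at a mean of 10.7, and the other 7 were dim, at means from 3.17 to 5.91. Opalin was under the limit of 4.14 below which probe sets were not tested (the 30th percentile of probe sets with a gene symbol). The 1405 probe sets of olfactory and vomeronasal receptor genes, which serve smell and were chosen as a reference for dim signal after the data were seen, had a median of 2.82 and a 95th percentile of 4.89. Opalin, Mag and Mog lay under that percentile, and the other 5 above it, with Mobp and Cnp at 5.03 and 5.31. Probe sets differ in how strongly they bind, so these figures do not rank the genes by abundance. For at least Opalin, Mag and Mog, RNA carried along from myelin was not shown by these arrays.

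Myelin genes are switched on in maturing oligodendrocytes by SOX10, a transcription factor of the SOX family, and by MYRF, the myelin regulatory factor. Promoters came from the RefSeq promoter table (build GRCm38.p6, from 250 bases before to 50 bases after each annotated start). Of the 8 genes 7 were searched. Mbp was not, because the chromosome it lies on was left out when the promoters of the members were taken. Promoters were searched on both strands for 2 short forms of the MYRF motif. The form CTGGCAC was searched along with its variant that has T in place of the second C, which reads CTGGTAC in full. For SOX factors 4 words were searched. The word ACAAAG is the commonest core of the family, and its close variant ACAATG was counted with it. The form TCAAAG and its own variant, which is TCAATG when spelled out, completed the search. A MYRF word was present in 4 of the 7 genes, Mog, Mag, Cnp and Opalin, and in 8.1% of the 27025 genes of the table when all promoters of a gene were counted. A SOX word was present in 6 of the 7 genes and in 47.8% of all genes, and Cldn11 was the gene without one. The promoters with a MYRF word, and that of Mobp for its repeated SOX words, are shown so that these words can be seen in their context. The promoter of Mal held 1 SOX word and no MYRF word, and that of Cldn11 neither. They are written 5′ to 3′ on the gene's strand, with MYRF words in capitals for Mog, Mag, Cnp and Opalin and SOX words in capitals for Mobp. Where a word lies on the other strand its reverse complement is capitalised. The coordinates are chr17:37023349-37023648 (minus strand) for Mog, chr7:30914814-30915113 (minus) for Mag, chr11:100574689-100574988 (plus) for Cnp, chr19:41077064-41077363 (minus) for Opalin and chr9:120149492-120149791 (plus) for Mobp.
Mog: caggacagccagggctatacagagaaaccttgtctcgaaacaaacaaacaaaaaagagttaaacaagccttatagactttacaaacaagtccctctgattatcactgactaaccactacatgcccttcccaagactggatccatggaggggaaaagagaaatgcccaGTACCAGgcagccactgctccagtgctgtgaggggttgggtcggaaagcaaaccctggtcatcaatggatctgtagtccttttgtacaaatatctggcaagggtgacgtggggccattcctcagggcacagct
Mag: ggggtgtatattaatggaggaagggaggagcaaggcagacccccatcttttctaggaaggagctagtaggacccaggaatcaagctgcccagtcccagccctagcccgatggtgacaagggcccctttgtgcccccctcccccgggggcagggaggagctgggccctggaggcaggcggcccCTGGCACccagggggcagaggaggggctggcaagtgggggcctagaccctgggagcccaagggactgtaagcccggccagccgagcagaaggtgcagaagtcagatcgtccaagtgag
Cnp: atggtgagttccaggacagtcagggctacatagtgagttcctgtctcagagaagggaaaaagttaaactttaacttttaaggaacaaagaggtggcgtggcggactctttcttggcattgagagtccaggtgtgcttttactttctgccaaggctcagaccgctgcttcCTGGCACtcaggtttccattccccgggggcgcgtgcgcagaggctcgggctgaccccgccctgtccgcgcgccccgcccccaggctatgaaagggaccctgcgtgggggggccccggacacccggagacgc
Opalin: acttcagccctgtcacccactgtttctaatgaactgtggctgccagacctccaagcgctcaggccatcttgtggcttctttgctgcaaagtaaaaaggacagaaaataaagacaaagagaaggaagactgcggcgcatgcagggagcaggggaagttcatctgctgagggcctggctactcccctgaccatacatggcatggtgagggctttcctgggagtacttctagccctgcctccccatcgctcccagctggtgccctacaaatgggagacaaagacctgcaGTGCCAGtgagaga
Mobp: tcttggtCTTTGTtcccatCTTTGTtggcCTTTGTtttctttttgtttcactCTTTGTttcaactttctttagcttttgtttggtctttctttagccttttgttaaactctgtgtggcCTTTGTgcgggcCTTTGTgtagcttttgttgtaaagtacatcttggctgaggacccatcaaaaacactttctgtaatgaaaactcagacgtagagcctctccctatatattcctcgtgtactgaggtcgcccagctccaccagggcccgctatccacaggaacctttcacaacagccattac

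In the printed promoters of Mog, Mag and Cnp the MYRF word lay in a narrow stretch upstream of the start, at bases -83 to -77, -68 to -62 and -81 to -75. Opalin held its word downstream of the start, at bases 37 to 43. Mag has 3 promoters in the table. A second one, which starts farther upstream and overlaps the printed one, held the same word at bases -9 to -3 from its own start. The narrow stretch thus depends on which Mag start is taken. The third promoter held no MYRF word. The Mobp promoter held 6 SOX words, all ACAAAG on the other strand between bases -243 and -115, and 10 of the 32851 promoters in the table held 6 or more. SOX and MYRF words did not overlap in these promoters. A match describes the letters of this window and not a bound site.

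**Figure D1:**
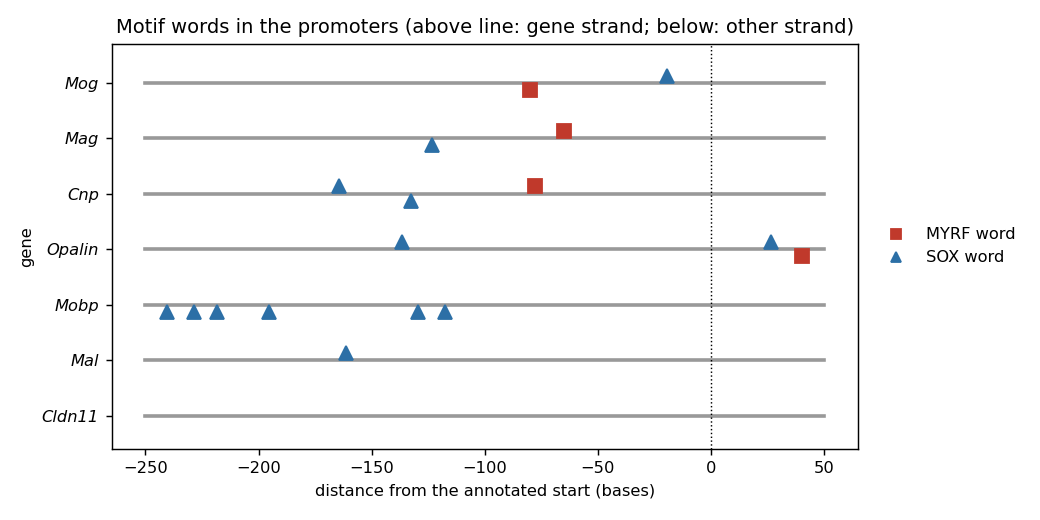
Positions of the MYRF words (squares) and SOX words (triangles) in the promoters of 7 myelin genes, along the distance from the annotated start in bases. For Mag the promoter printed in the text is drawn. Squares for Mog, Mag and Cnp fall between -83 and -62, Mobp carries 6 triangles and Cldn11 none.

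Across the 17734 tested probe sets, limma (linear models with moderated variances) with Benjamini-Hochberg adjustment over all of them called none between PDGF-CC and PBS at an adjusted p under 0.05 (0%), and 6.04% had an unadjusted p under 0.05. Of the 8 myelin genes 7 were tested, and 0 of these 7 passed at either level. Differences were positive for 5 of the 7 and for 8588 of all 17734 tested probe sets. The median difference was +0.074 for the 7 genes and -0.0038 over all tested probe sets. Arrays correlated with each other at 0.987 to 0.994. Sample descriptions number the arrays from 1 to 7 over both groups; numbers 1 to 4 hold 2 arrays of each group and 5 to 7 hold 2 PDGF-CC arrays and 1 PBS array, and what the numbers stand for is not given.

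Mbp, which encodes myelin basic protein, the protein that binds the cytoplasmic faces of the membrane together, gave values of 6.98, 5.75, 5.86 and 5.49 in PDGF-CC arrays 1 to 4 and of 5.72, 5.98 and 5.60 in PBS arrays 1 to 3. PDGF-CC array 1 stood 1 unit above the next highest array, which was a PBS array, and the remaining 6 arrays of both groups were interleaved. The means were 6.02 ± 0.66 (SD, n = 4) and 5.76 ± 0.19 (SD, n = 3), a difference of +0.26 ± 0.34 (log2, SE) with a 95% interval from -0.54 to 1.06 and an adjusted p of 0.856 by limma. Without PDGF-CC array 1 the difference was -0.064. Its residual SD within groups, 0.52, was 4.09 times the median of all tested probe sets, 0.128, and higher than that of 98.9% of them. The Mbp locus also gives the golli transcripts, made also in other cells, and the 1 probe set does not separate them here.

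Mobp, the myelin-associated oligodendrocyte basic protein gene, encodes another small basic protein of compact myelin. Its values were 5.17, 5.04, 5.11 and 4.92 in the PDGF-CC arrays and 4.99, 5.04 and 4.93 in the PBS arrays. The groups overlapped over their whole PBS range, and PDGF-CC array 1 was again the highest. The difference was +0.074 ± 0.072 (log2, SE, n = 4 and 3), with an interval from -0.095 to 0.24 and an adjusted p of 0.809 by limma. It was +0.036 without PDGF-CC array 1, +0.048 without PBS array 3 and +0.12 without PDGF-CC array 4.

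Cnp encodes an enzyme of the uncompacted layers, 2′,3′-cyclic nucleotide phosphodiesterase, which keeps cytoplasmic channels in myelin open. It was at 5.72 in PDGF-CC array 1 and at 5.27, 5.28 and 5.27 in arrays 2 to 4, beside 5.35, 5.19 and 5.06 in the PBS arrays. The PDGF-CC arrays other than array 1 were nearly equal, with an SD of 0.0031, and PBS array 1 lay above them. The difference was +0.18 ± 0.13 (log2, SE, n = 4 and 3; interval -0.13 to 0.50, adjusted p = 0.773 by limma), and it was +0.072 without PDGF-CC array 1.

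Mag, the myelin-associated glycoprotein gene, encodes an adhesion protein of the innermost layer next to the axon. Its values were 4.39, 4.31, 4.27 and 4.31 in the PDGF-CC arrays and 4.31, 4.17 and 4.31 in the PBS arrays. They varied little, and 4 of the 7 arrays, from both groups, held exactly the same value of 4.313334. The difference was +0.058 ± 0.060 (log2, SE, n = 4 and 3; interval -0.083 to 0.20, adjusted p = 0.819 by limma), and +0.0094 without PBS array 2.

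Mog encodes myelin oligodendrocyte glycoprotein, an immunoglobulin-like protein on the outer surface of the sheath and a target of antibodies in demyelinating disease. It was at 4.66, 4.85, 4.66 and 4.62 in the PDGF-CC arrays and at 4.53, 4.62 and 4.33 in the PBS arrays. Every PDGF-CC array was above every PBS array, although PDGF-CC array 4 and PBS array 2 both round to 4.62. The difference was +0.21 ± 0.089 (log2, SE, n = 4 and 3; interval -0.0042 to 0.42, adjusted p = 0.769 by limma). An exact permutation test over the 35 splits of the arrays gave p = 0.0286, 2-sided, which is the smallest p it can give; for the 6 members other than Mog and Opalin the same test gave p from 0.343 to 0.771. Without PBS array 3 the difference was +0.13.

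Opalin encodes a glycoprotein of the oligodendrocyte paranodal loops. Its values were 3.16, 3.32, 3.38 and 3.15 in the PDGF-CC arrays and 3.09, 3.12 and 3.00 in the PBS arrays. Here too every PDGF-CC array was above every PBS array in the deposited values, which were under the limit for testing in all 7. The difference was +0.18 (log2, means 3.25 ± 0.11, SD, n = 4, and 3.07 ± 0.065, SD, n = 3), with an exact permutation p of 0.0857, 2-sided. After cyclic loess normalization the groups overlapped for Opalin. PDGF-CC array 1 was then at 3.141, below PBS array 1 at 3.159 and PBS array 2 at 3.143. Complete separation with PDGF-CC higher was seen for 1.8% of all tested probe sets and, among the 7 tested myelin genes, for Mog. With PDGF-CC lower it was seen for 2.5% of all and for none of the 7.

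Mal and Cldn11 differed from the other members in sign. Mal encodes a lipid raft protein with several membrane spans, found in myelin and in epithelia, where it takes part in transport to the apical membrane. It was at 10.39, 10.69, 10.81 and 10.69 in the PDGF-CC arrays and at 10.69, 10.69 and 11.05 in the PBS arrays. The groups overlapped, and 3 arrays from both groups held the same value of 10.6901. PDGF-CC array 1, the highest array for Mbp, Mag, Mobp and Cnp, was the lowest for Mal, and PBS array 3 was the highest. The difference was -0.17 ± 0.13 (log2, SE, n = 4 and 3; interval -0.47 to 0.14, adjusted p = 0.782 by limma), -0.080 with PDGF-CC array 1 left out and -0.045 with PBS array 3 left out.

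Cldn11 encodes claudin-11, which forms the tight junction strands of central myelin and is also made in the arachnoid barrier of the meninges. It was at 5.85, 5.82, 5.88 and 5.89 in the PDGF-CC arrays and at 5.73, 5.88 and 6.07 in the PBS arrays. The PBS arrays spanned the whole range, and the PDGF-CC arrays lay between PBS arrays 1 and 3. The difference was -0.033 ± 0.083 (log2, SE, n = 4 and 3; interval -0.23 to 0.16, adjusted p = 0.929 by limma), and it was +0.056 without PBS array 3.

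**Figure D2:**
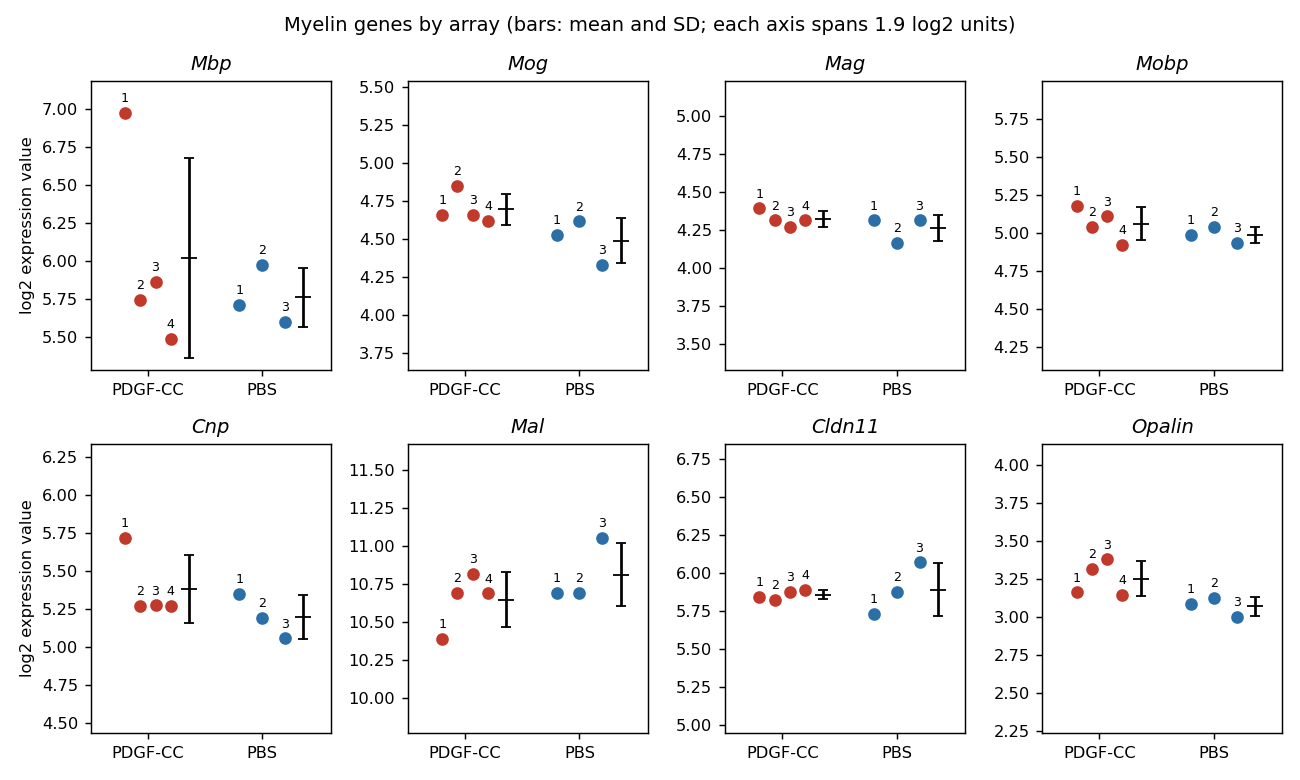
Log2 expression values of the 8 myelin genes on each array, 1 panel per gene, with PDGF-CC arrays in red, PBS arrays in blue and the array number above each point; bars give the mean and SD of a group. All panels span the same number of log2 units but start at different levels. The high point for Mbp in PDGF-CC array 1 is at 6.98, and Mal in the same array is the lowest of its panel at 10.39.

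The genes did not vary as a unit between arrays. PDGF-CC array 1 was the highest array for 4 of the 8 genes, where 16.3% of all tested probe sets had their highest value on it, PBS array 3 was the highest for 2 and the lowest for 3, and PDGF-CC array 4 was the lowest for 2. Residual SDs were above the median of all tested probe sets for 3 of the 7 tested genes, Mbp, Cnp (0.20) and Mal (0.19). Only Mbp lay above 2 times that median, as did 10.6% of tested probe sets. Mog, Mag, Mobp and Cldn11 had residual SDs from 0.066 to 0.12. Exactly equal values in at least 2 arrays were held by 5 of the 8 genes (Mag, Mobp, Cnp, Mal and Cldn11) and by 63.6% of tested probe sets, and the part of these values in the spread was not tested.

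Within description numbers 1 to 4 the difference between the groups was +0.52 for Mbp, +0.18 for Mog, +0.22 for Cnp and -0.15 for Mal. Within numbers 5 to 7 it was +0.076, +0.31, +0.21 and -0.30 in the same order. Cldn11 changed from +0.032 to -0.19 between these parts, and Mag from +0.11 to -0.021, while Mobp was at +0.095 and +0.080 and Opalin at +0.13 and +0.27. The difference of Mbp, and that of Mag, lay mostly in the part that holds PDGF-CC array 1, while Cnp and Mobp gave nearly the same value in both parts, although leaving out that array lowered them to the +0.072 and +0.036 given above.

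PDGF-CC array 1 also stood out for some of the marker lists of other cells, and their part in the values of the myelin genes was not tested. Neuronal markers (14 of 14 measured, 4 of them under the limit for testing, among these the neurofilament genes Nefl and Nefm of axons) had their highest list mean on it. That mean was 4.93 to 5.04 in the PDGF-CC arrays and 4.82 to 4.92 in the PBS arrays. Over the 10 tested genes alone the list mean was highest on PDGF-CC array 3, not on array 1. It was 5.39 to 5.44 in PDGF-CC and 5.31 to 5.41 in PBS, so that the groups overlapped. No tested gene of the list separated them. Their members with the smallest p were Stmn2 at +0.14 ± 0.084 and Snap25 at +0.29 ± 0.18 (log2, SE). Endothelial markers (12 of 12; 10.87 to 11.02 in PDGF-CC and 10.93 to 11.10 in PBS) and mural markers (10 of 10; 9.64 to 9.91 and 9.76 to 9.96) had their lowest list mean on PDGF-CC array 1 and their highest on PBS array 3, as Mal did. Ly6c1 and Slco1a4 of endothelium were at -0.16 ± 0.074 and -0.13 ± 0.066, and the mural genes Kcnj8 and Cnn1 at -0.21 ± 0.060 and +0.21 ± 0.059. Astrocyte markers (10 of 10) ran from 6.59 to 6.78 in PDGF-CC and from 6.63 to 6.77 in PBS, and 5 were positive and 5 negative with a median of +0.011. The smallest p were those of Gja1 at -0.14 ± 0.063 and Gfap at -0.20 ± 0.10, both among the negative ones.

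Microglial markers (9 of 10 measured) were at 9.77 to 9.82 in PDGF-CC and 9.29 to 9.72 in PBS, lowest on PBS array 2, with P2ry12 at +0.32 ± 0.096 and Trem2 at +0.30 ± 0.097. Choroid plexus markers (7 of 8) were at 6.49 to 7.34 in PDGF-CC and 7.51 to 7.85 in PBS, with Kl at -1.14 ± 0.30 and Kcne2 at -0.78 ± 0.21. None of these genes passed the adjusted threshold. On PDGF-CC array 1, probe sets with means from 5 to 6 had a median deviation of +0.0060 from their 7-array mean, and those above 10, where Mal lies, had one of -0.058. The deviations of Mbp and Mal on that array were +1.07 and -0.33. For probe sets above 10, PDGF-CC array 1 had the lowest median deviation of the 7 arrays and PBS array 3 the highest, at +0.047. Mal deviated by +0.34 on PBS array 3.

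**Figure D3:**
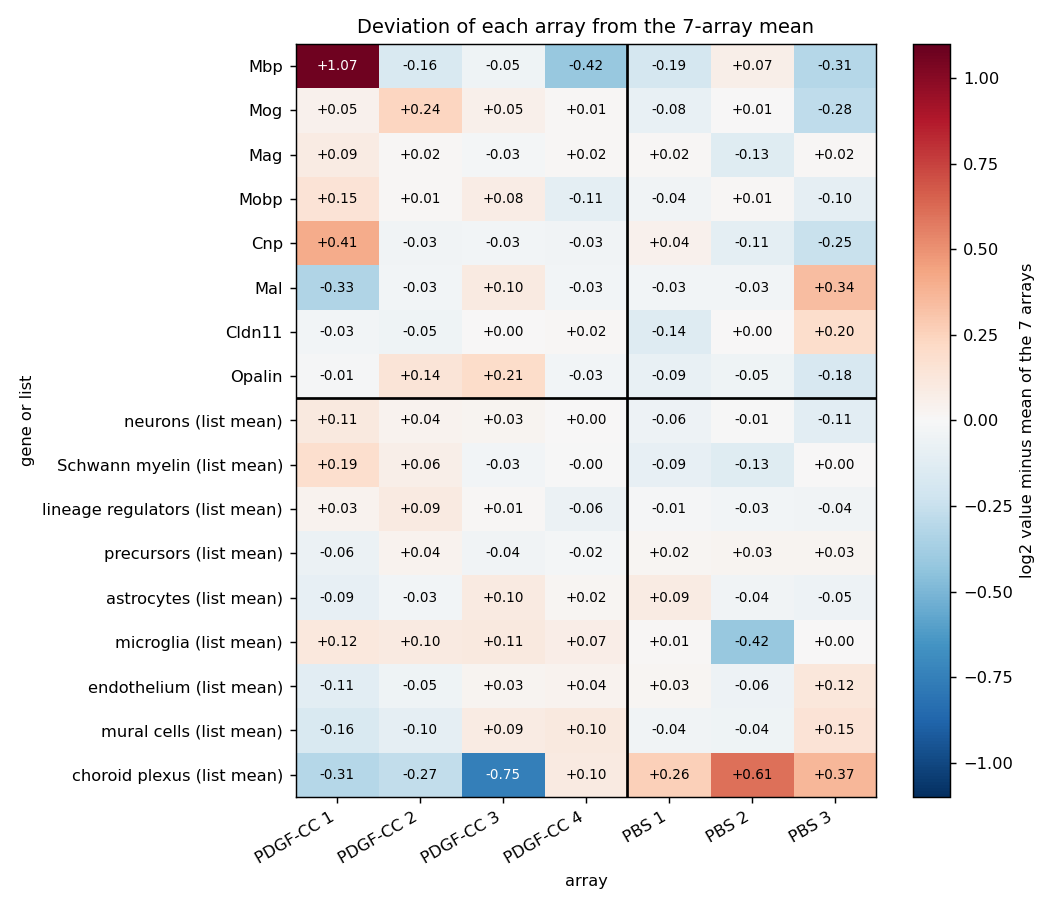
Log2 value of each array minus the mean of the 7 arrays, for the 8 myelin genes (above the line) and for the list means of other cells (below it), with red for higher and blue for lower; the vertical line separates PDGF-CC from PBS arrays. Mbp on PDGF-CC array 1 is the largest deviation among the genes, and the Mal row runs from its lowest value there to its highest on PBS array 3, as do the endothelium and mural rows.

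Other genes of oligodendrocytes and of peripheral myelin gave no called difference. Of 85 entries in 6 lists, covering further myelin proteins, myelin lipid synthesis, other oligodendrocyte markers, lineage regulators, precursors and peripheral myelin, 78 were measured and 67 tested. Of these 67, 0 passed the adjusted threshold by limma and 3 (Tspan2, Ndrg1 and Dhh) had an unadjusted p under 0.05; 34 were positive and 33 negative, with a median of +0.0079. Groups did not overlap for 2 of the 67, the peripheral myelin list's Dhh and the precursor list's Rras2, beside 4.3% of all tested probe sets.

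Among further proteins of central myelin 12 of 17 tested were positive, with a median of +0.025. Tspan2, a tetraspanin that acts early in myelin formation, was at 6.67, 6.67, 6.94 and 7.02 in the PDGF-CC arrays and 6.35, 6.35 and 6.67 in the PBS arrays, a difference of +0.37 ± 0.13 (log2, SE). Its highest PBS array met its lowest PDGF-CC arrays. Bcas1, a marker of oligodendrocytes that are beginning to myelinate, was at +0.21 ± 0.12, with its highest value, 4.61, on PDGF-CC array 1. Cd9 and several others on this list are also made by vessel cells.

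Genes of myelin lipid synthesis were positive in 5 and negative in 6 of 11, with a median of -0.024. Gltp, a glycolipid transfer protein gene, was at -0.15 ± 0.10 and Elovl7, a fatty acid elongase gene, at -0.14 ± 0.095. Other markers of mature oligodendrocytes were negative in 13 of 14, with a median of -0.041. In that list Ndrg1, a stress-responsive gene that vessel cells express as well, was at -0.23 ± 0.089 and the small heat shock protein gene Cryab at -0.29 ± 0.16.

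The regulators whose words were searched in the promoters were dim, and Myrf varied little. Myrf was at 4.89 in PDGF-CC array 1 and between 4.77 and 4.79 in the other 6 arrays, a difference of +0.021 ± 0.050. Its low spread includes repeated values, since PDGF-CC arrays 2 and 3 and all PBS arrays held the same 4.79009. For Sox10, PDGF-CC arrays 1 and 3 and PBS arrays 2 and 3 shared the value 4.96058. Sox10 was at 4.96, 5.19, 4.96 and 4.81 in the PDGF-CC arrays and at 4.92, 4.96 and 4.96 in the PBS arrays, a difference of +0.034 ± 0.090. Of the 9 tested regulators 6 were positive (median +0.034), and the smallest p were those of Olig2 at +0.12 ± 0.055 and Zfp488 at +0.17 ± 0.090. Precursor genes were positive in 5 and negative in 5 of 10, with a median of -0.044. Gpr17, a receptor of newly forming oligodendrocytes, was at -0.19 ± 0.10 and Pcdh15 at -0.18 ± 0.094. Peripheral myelin genes, made by Schwann cells of nerves, were positive in 5 of 6, with a median of +0.15 and their highest list mean on PDGF-CC array 1. Dhh, a Schwann cell signal, was at +0.21 ± 0.080 and Egr2, a transcription factor that is also an immediate-early gene, at +0.32 ± 0.21. For all of these named genes the adjusted p by limma lay at or above 0.769.

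**Figure D4:**
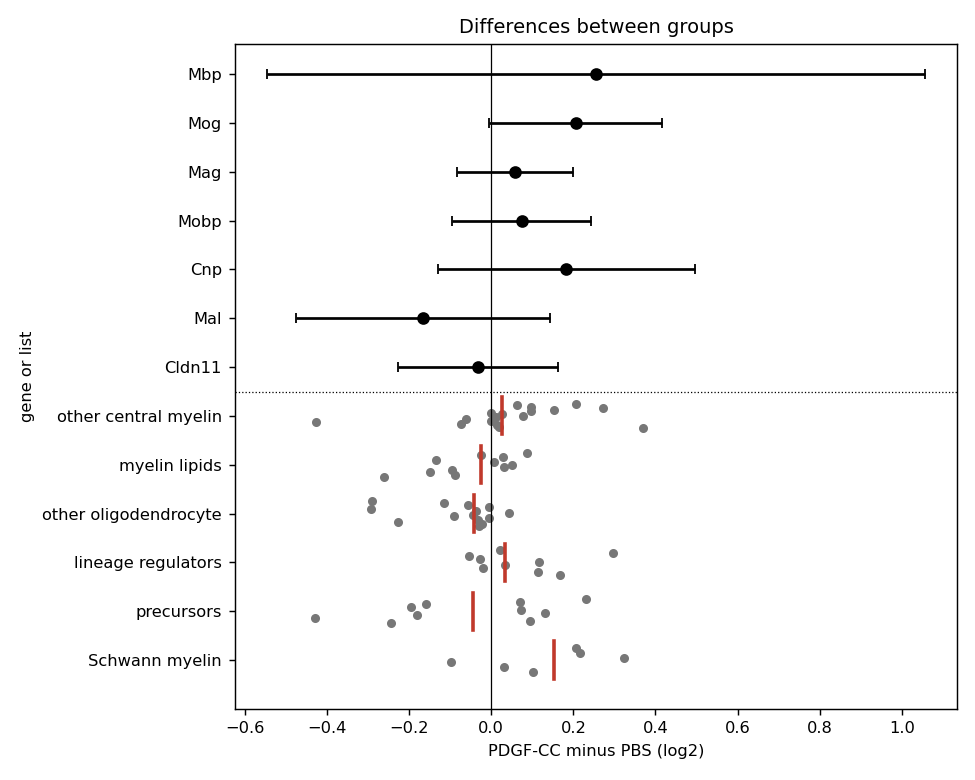
PDGF-CC minus PBS on the log2 scale for the 7 tested myelin genes (points, with 95% intervals from limma) and for each tested gene of 6 further lists (grey points, with the list median as a red bar). Every interval of a myelin gene includes 0, and that of Mbp is the widest, from -0.54 to 1.06.

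Genes outside the oligodendrocyte lists that most closely followed the mean of the 8 myelin genes over 7 arrays included some known from varied cells. Among 6861 candidates 49 had a Pearson r of at least 0.9, and the mean itself is carried largely by Mbp on PDGF-CC array 1. The 10 closest were Mir142 (r = 0.98), AA543186, Pdc, Isl1, Emx1, Olfr1219, Prg2, Ern2, Rara and Zfp39 (r = 0.95), all highest on PDGF-CC array 1. Without that array their r with the same mean ran from 0.79 to 0.95 over 6 arrays. Mir142 is a microRNA gene of blood cells, Isl1 and Emx1 encode transcription factors of neural development, and Pdc encodes phosducin of photoreceptors. Prg2, which encodes the major basic protein of eosinophils and is unrelated to myelin basic protein, ran from 4.47 on PDGF-CC array 4 to 8.43 on PDGF-CC array 1. These r describe 7 arrays that share 1 high array, and they carry no test.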

How the data were processed

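RNA of vascular fragments was measured on 7 microarrays, amplified from 10 ng of total RNA per sample per the labels' protocols. The deposited values are on the log2 scale, as their range showed. Per the submitters' processing notes, RMA and Affymetrix Expression Console were used, as was limma, with no versions given. RMA equalises the distributions of probe signals before it summarises them, and the deposited probe set values still differ slightly in distribution between arrays. The genome build is not given in the sources used here. Symbols came from the platform annotation: 23521 probe sets had 1 symbol, 1814 several and 8458 none. Of the probe sets with a symbol, those brighter on average than the 30th percentile (4.14) were tested, 17734 in all. The test was limma's moderated linear model (lmFit, eBayes; version 3.58.1, R 4.3.3) of treatment alone, 2-sided, with Benjamini-Hochberg adjustment over all tested probe sets; the fit was tested on simulated data. The members, lists, motif words and tests were chosen with earlier results of these data known. Named were all members, the 2 genes with the smallest p of each other list (no list had a gene past the threshold), and the 10 genes outside the oligodendrocyte lists, other than predicted and Rik genes, with the highest r to the mean of the members, among probe sets varying at least as much as the median one. Sox10, Myrf, Cd9, Rras2, Nefl and Nefm were named after their values were seen. Figures were drawn with matplotlib 3.10.9. Arrays carry no read depth, and their number limits the precision.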

Additional observations from a re-analysis of the deposited data

Results flagged for a closer look

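Cnp on PDGF-CC array 1, at 5.72 beside 5.27 to 5.28 on the other PDGF-CC arrays, lay so far out that its gap to the nearest array made up 0.988 of the range of the 4 arrays, above the 95% critical value of Dixon's test. The mean of the list of further central myelin proteins was lowest on PDGF-CC array 2, at 6.36 beside 6.40 to 6.41, with a gap of 0.854 of the range. In all, 20 such sets of 4 PDGF-CC arrays were examined, the 8 genes and 12 list means. For independent values without ties, chance alone would flag about 1 in 20. Cnp held exactly the same value, 5.27, on PDGF-CC arrays 2 and 4, so that rate need not hold here.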

How the results depend on the processing

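No member and no gene of the oligodendrocyte lists was called under any alternative run. The count of probe sets called over the whole table, 0 as reported, was 3 after median-centring of the arrays, with a robust and trended prior, or with testing limited to probe sets above the 50th percentile, and 1 with repeated quantile normalization. It was 0 to 1 with an array left out. With cyclic loess, an alternative chosen after seeing the data, it was 1. The median member difference was -0.033 with the filter at the 50th percentile, which keeps only Mbp, Mal and Cldn11, +0.13 without a filter, which adds Opalin, and 0.035 to 0.12 with an array left out. Cldn11 turned positive with array weights (+0.0054) and with the description number as a covariate (+0.0072), and ran from -0.11 to 0.056 (without PBS array 3) with an array left out. Mbp ran from -0.064, without PDGF-CC array 1, to 0.43. The other 6 genes kept their sign in every alternative that gave them a value. Sample titles number both groups from 1; same-numbered arrays deviated together at r = 0.16, 0.11 and 0.084, not all above 0.1, so the numbers were not taken as pairs, although each of these arrays correlated best with its own number. With the title number as a replicate block, 0 members were called and the median member difference was +0.12. In that run 1 member had a residual SD above the median, against 3 without the block and 3 to 4 with an array left out. Title number 4 occurs only in PDGF-CC, so the member differences of the block run were those of leaving out PDGF-CC array 4. The mean over all probe sets of a gene is the same value, since each member has 1. The small number of arrays and the dim signal of Opalin, Mag and Mog limit what could be detected.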
